A study of Homo sapiens with 12 samples.

Results

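Aminoacyl-tRNA synthetases attach each amino acid to its transfer RNA (tRNA) and so supply the ribosome with its substrates. Human cells use separate sets for translation in the cytosol and in mitochondria, most of them from different nuclear genes, whose symbols end in 1 for the cytosolic and 2 for the mitochondrial enzyme. Several cytosolic enzymes sit in the multi-synthetase complex, which is held together by the scaffold proteins AIMP1, AIMP2 and EEF1E1 (also called AIMP3), and many synthetase genes are known targets of ATF4, the transcription factor of the amino acid response. The genes described here were taken by symbol from the authors' comparison table, and 40 of its 19460 genes met the rule. The 38 described here were 17 cytosolic enzymes, 16 mitochondrial enzymes, GARS1 and KARS1, whose genes serve both compartments, and the 3 scaffold proteins.

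The values come from T-47D, an established luminal breast cancer cell line that carries the oestrogen receptor, with the genotype given as WT. Cells received 1 µM palbociclib, an inhibitor of the cell-cycle kinases CDK4 and CDK6, or the solvent DMSO alone, for 24 h. Poly(A) RNA sequencing and ATAC-seq, which counts where the transposase Tn5 can enter chromatin, were each run on 3 replicates per treatment. The ATAC medium of the controls held 0.1% DMSO, and the ATAC replicates grew in separate dishes. For RNA the labels give replicate numbers only, so RNA p-values measure the spread between these libraries, which may be technical.

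RNA levels are FPKM, fragments scaled by transcript length and library depth, so genes can be compared in level, and the depth per RNA library is not given. A mean normalized count from the authors' deposited table stood behind each gene, from 438 for PARS2 to 28705 for IARS2. Counts in ATAC peaks summed to between 12830062 and 18250496 per library. All 8 luminal markers had a value, and their summed level was 5419 to 5939 FPKM with DMSO and 7312 to 8084 with palbociclib. KRT8, KRT18 and KRT19 weighed most in it, with means of 1698, 996 and 2113 FPKM with DMSO and 2491, 1413 and 2916 with palbociclib. Every luminal marker but EPCAM had a higher mean with palbociclib. EPCAM went from 196 ± 9.25 to 177 ± 11.2 FPKM (SD, n = 3), with overlapping groups. Of the 13 markers of basal, fibroblast, leukocyte and endothelial cells, KRT5, KRT14, DCN, PTPRC, CD3E and the 3 endothelial markers had no value. COL1A1 was at 23.7 ± 0.582 FPKM (SD, n = 3) with DMSO and ACTA2 at 9.04 ± 0.127, while TP63, CD68 and COL1A2 were below 0.5. In bulk RNA, a lower level in every cell and fewer cells with a high level cannot be told apart.

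The synthetase genes as a group moved little, and more of them fell than rose with palbociclib. All 38 passed the filter of a mean FPKM of at least 0.5. At an adjusted p under 0.05 in limma (Benjamini-Hochberg over 15869 genes), 14 were lower (36.8%) and 3 were higher (7.89%). Of all genes tested 22.9% were lower and 20.9% higher, 43.7% in all, and of genes within the members' range of level 28% were lower and 22.4% higher. The libraries of the 2 treatments did not overlap for 15 members that were lower with palbociclib and 3 that were higher, against 28.2% and 26.5% of all genes tested. Without palbociclib replicate 1, or without palbociclib replicate 2, RARS1 was the only member called higher. Quantile normalization in place of the authors' scaling gave 11 lower and 6 higher, and over all genes it gave 18% lower and 28.9% higher. The median log2 change, on the scale of FPKM + 1 used for every RNA change here, was -0.07 over the members and 0.0023 over all genes tested.

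**Figure D1:**
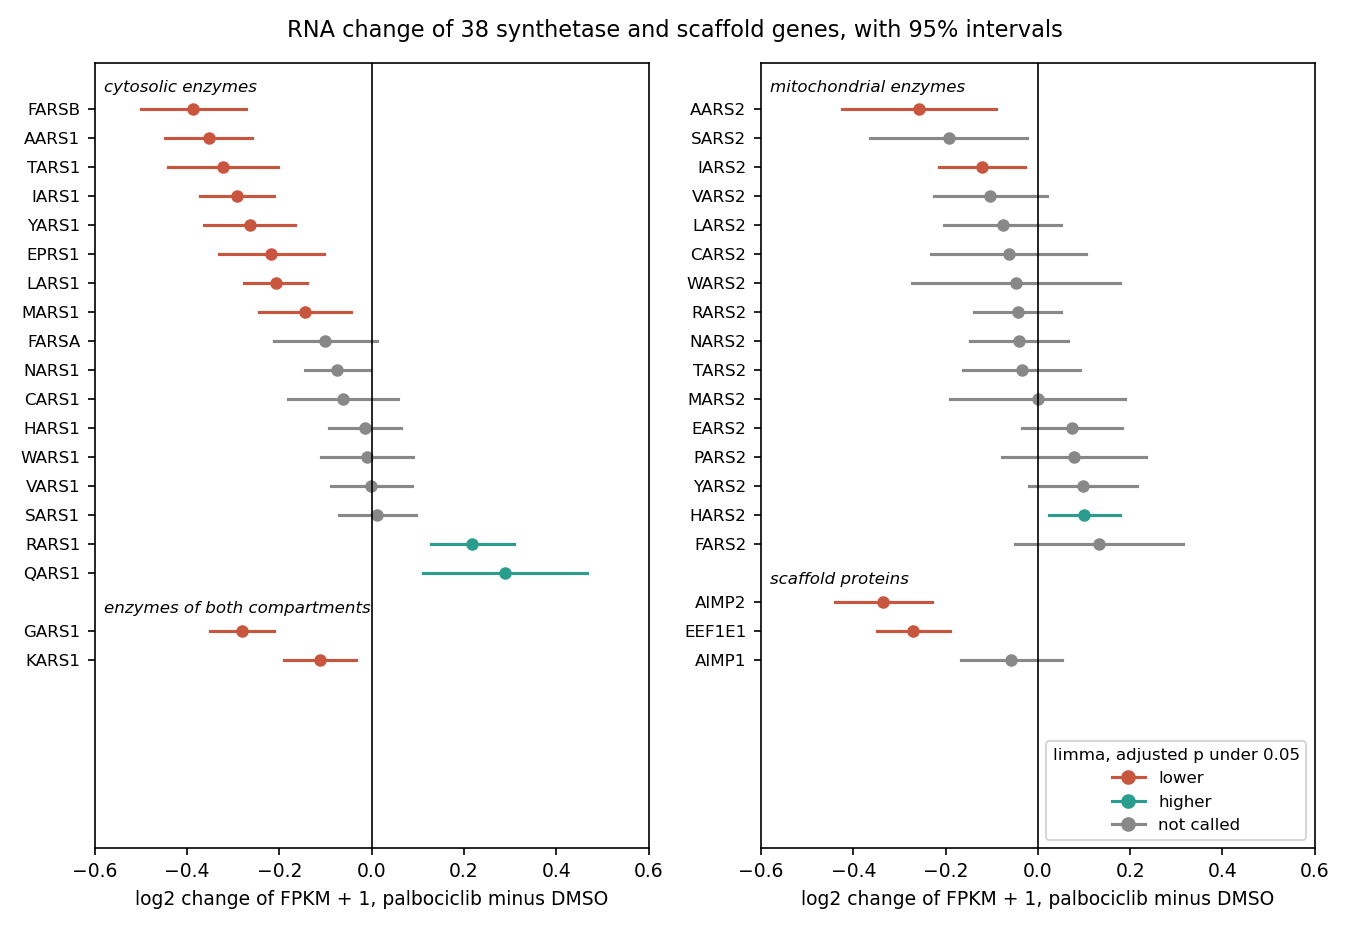
RNA log2 change of FPKM + 1 (x axis, palbociclib minus DMSO) of each of the 38 genes, as a point with its 95% interval from limma, grouped by cytosolic, dual, mitochondrial and scaffold genes. FARSB lies farthest to the left at -0.39, 14 genes are coloured as lower and 3, QARS1, RARS1 and HARS2, as higher.

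Among the cytosolic enzymes, 8 of 17 fell (47.1%), 2 rose (11.8%) and 7 did not pass the test. Of all genes tested 22.9% fell and 20.9% rose. The median change of the cytosolic enzymes was -0.10, and it was -0.026 under quantile normalization. The genes that fell were FARSB, AARS1, TARS1, IARS1, YARS1, EPRS1, LARS1 and MARS1, with log2 changes from -0.39 to -0.14. CARS1, FARSA, HARS1, NARS1, SARS1, VARS1 and WARS1 did not pass, with changes between -0.10 and 0.01. Of these, FARSA and NARS1 had groups that did not overlap, lower with palbociclib, as did 28.2% of all genes tested. The 95% intervals of HARS1, SARS1, VARS1 and WARS1 lay within -0.11 and 0.10.

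Short promoter stretches are shown first for the members that hold a C/EBP-ATF response element, the motif to which ATF4 binds together with a C/EBP partner. The motif was searched as TGATGNAAN on both strands, from 250 bases before to 50 bases after each RefSeq start (GRCh38.p14). Windows were found for 33 of the 38 members, 45 in all because some genes have several starts. The motif was in 8 windows of 8 members (17.8% of the members' windows), against 3.61% of all 35116 windows in the table. Each line gives a stretch of 30 bases 5′ to 3′ on the gene's strand, with the match in capitals.
AARS1, chr16:70289675-70289704, minus strand: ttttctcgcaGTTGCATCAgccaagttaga
CARS1, chr11:3057407-3057436, minus strand: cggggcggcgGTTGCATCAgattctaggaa
IARS1, chr9:92293692-92293721, minus strand: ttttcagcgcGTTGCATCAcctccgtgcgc
MARS1, chr12:57488053-57488082, plus strand: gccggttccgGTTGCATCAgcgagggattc
NARS1, chr18:57621803-57621832, minus strand: ctacgctctcTGATGCAACgccggaatcgc
TARS1, chr5:33440956-33440985, plus strand: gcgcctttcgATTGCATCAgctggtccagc
GARS1, chr7:30594834-30594863, plus strand: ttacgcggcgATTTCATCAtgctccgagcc
YARS2, chr12:32756075-32756104, minus strand: tccacactgcTGATGGAAAaattaagttta
AARS1, CARS1, IARS1 and MARS1 carry the same letters, GTTGCATCA, and NARS1 carries their reverse complement on its own strand. The match begins 5 bases before the start in MARS1 and 14 before in IARS1. CARS1, GARS1 and TARS1 have more than 1 start. In CARS1 it begins 3 bases before the start at chr11:3057423. In GARS1 it begins 34 bases before the start at chr7:30594878, outside the window of the start at chr7:30594735. In TARS1 it begins 1 base after the start at chr5:33440965, outside the window of the start at chr5:33440696. In AARS1 and YARS2 it lies farther out, 188 and 197 bases before the start. By class, 6 of 14 cytosolic enzymes with a window held a match, 1 of 14 mitochondrial enzymes and GARS1 of the dual enzymes. Of these 8 members 5 fell, none rose and 3 (CARS1, NARS1 and YARS2) did not pass the test, with a median change of -0.21. Of the 25 matched members with no such letters in the window, 6 fell, 3 rose and 16 did not pass, with a median of -0.04. Of all genes tested 22.9% fell and 20.9% rose. Whether the members with and without a match differ was not tested. Most members with a match were cytosolic enzymes, so these counts mix motif and class. Among the cytosolic enzymes with a match, AARS1, IARS1, MARS1 and TARS1 fell and CARS1 and NARS1 did not pass. Among those with a window and no match, EPRS1 and FARSB fell and QARS1 and RARS1 rose. FARSA, HARS1, SARS1 and WARS1, also without a match, did not pass. Among the members with no window, AARS2, LARS1 and YARS1 fell and VARS1 and VARS2 did not pass. A match describes letters in a window, and binding was not measured here.

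FARSB encodes the beta subunit of the cytosolic phenylalanine enzyme, which is built from FARSA and FARSB. It was at 11.7, 11.2 and 12.1 FPKM in the DMSO libraries and at 8.40, 8.96 and 8.71 in the palbociclib libraries. The groups did not overlap, and its log2 change was -0.39 (SE 0.05, adjusted p = 0.000374 in limma). The alpha subunit FARSA was higher in level, at 31.7 ± 0.484 and 29.5 ± 1.83 FPKM (SD, n = 3), with a log2 change of -0.10 and a 95% interval from -0.21 to 0.01, and it did not pass the test.

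AARS1 loads alanine and stood among the highest cytosolic enzymes. Its levels were 99.7, 94.97 and 96.5 FPKM with DMSO and 78.8, 77.0 and 71.7 with palbociclib. Every palbociclib library was below every DMSO library, with a log2 change of -0.35 (SE 0.04, adjusted p = 0.000222 in limma). The threonine enzyme TARS1 measured 40.5, 37.1 and 38.8 FPKM with DMSO and 32.7, 30.9 and 29.0 with palbociclib. Its groups were likewise apart, with a log2 change of -0.32 (SE 0.05, adjusted p = 0.00127 in limma). The tyrosine enzyme YARS1 lay within 41.9 to 42.1 FPKM in the DMSO libraries and within 32.9 to 36.7 in the palbociclib libraries, a log2 change of -0.26.

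**Figure D2:**
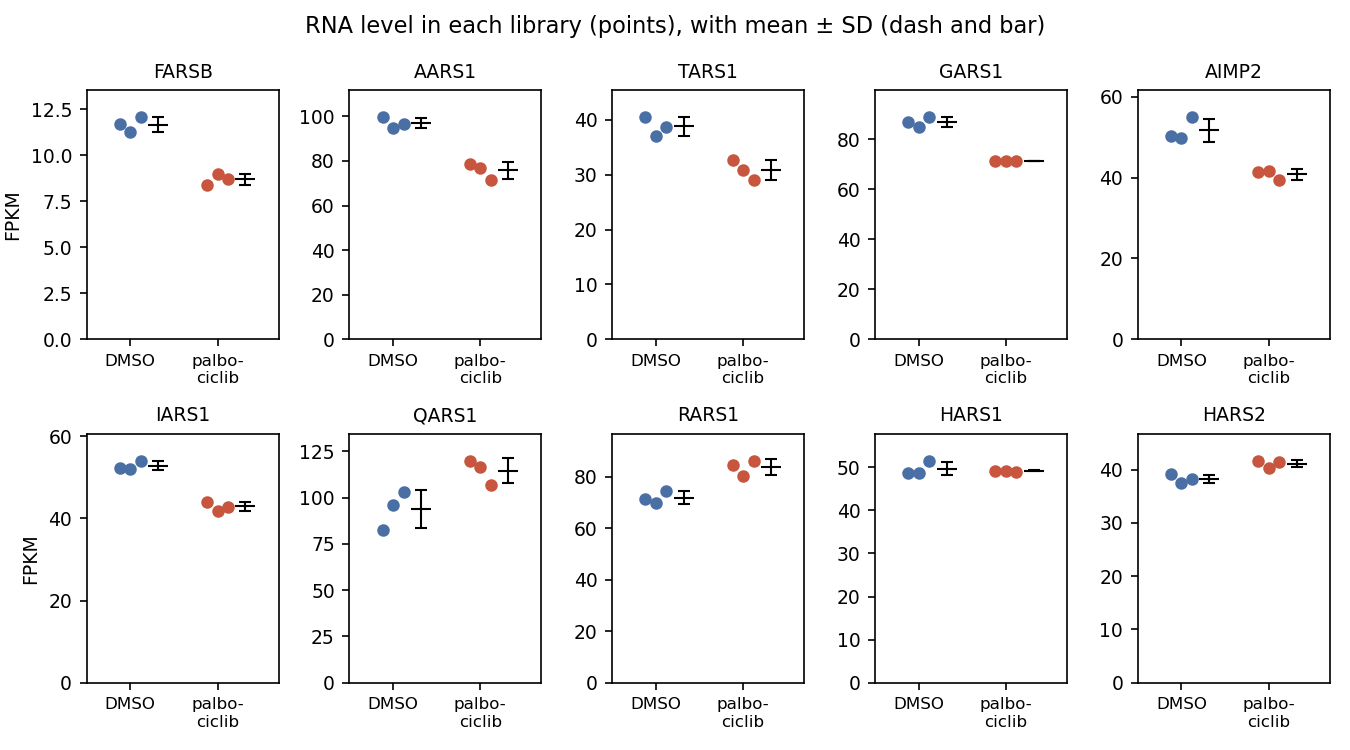
RNA level in FPKM (y axis, from 0) in each of the 3 DMSO and 3 palbociclib libraries (points) for 10 genes, with the mean ± SD beside them. The palbociclib points of FARSB, at 8.40 to 8.96 FPKM, lie below its DMSO points at 11.2 to 12.1, those of QARS1 and RARS1 lie above, and those of HARS1 fall within its DMSO range.

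The 7 enzymes of the multi-synthetase complex described here moved in both directions. EPRS1, IARS1, KARS1, LARS1 and MARS1 fell (71.4%), and QARS1 and RARS1 rose (28.6%), against 22.9% and 20.9% of all genes tested. IARS1, the isoleucine enzyme, went from 52.3, 52.0 and 54.0 FPKM to 44.1, 41.8 and 42.8, with no overlap and a log2 change of -0.29 (SE 0.03, adjusted p = 0.000243 in limma). LARS1, the leucine enzyme, was at 70.4 ± 0.909 FPKM (SD, n = 3) with DMSO and 60.8 ± 0.989 with palbociclib. EPRS1, a single protein that loads both glutamate and proline, was at 79.5 ± 1.41 and 68.4 ± 4.88 FPKM. Their log2 changes were -0.21 and -0.22, both with groups apart.

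QARS1, the glutamine enzyme, was at 82.6, 96.0 and 103 FPKM with DMSO and at 120.0, 117 and 107 with palbociclib. The groups did not overlap, although the DMSO libraries were spread over 20.3 FPKM and the gap to the lowest palbociclib library was 4.12 FPKM. The log2 change was 0.29 (SE 0.08, adjusted p = 0.0166 in limma). Without palbociclib replicate 1 the adjusted p was 0.0594, and without palbociclib replicate 2 it was 0.0521. RARS1, the arginine enzyme, was at 71.5, 69.7 and 74.5 FPKM with DMSO and at 84.6, 80.4 and 86.3 with palbociclib. It rose by a log2 change of 0.22 (SE 0.04, adjusted p = 0.00235 in limma), with all 3 palbociclib libraries above the DMSO range.

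MARS1 and KARS1 were the complex members with the smallest calls. MARS1, the methionine enzyme, was at 98.4, 105 and 106 FPKM with DMSO and 98.2, 90.1 and 91.3 with palbociclib, so its highest palbociclib library came within 0.257 FPKM of its lowest DMSO library. Its log2 change was -0.14 (adjusted p = 0.0276 in limma). KARS1, the lysine enzyme of both compartments, went from 81.3 ± 1.68 to 75.2 ± 2.13 FPKM (SD, n = 3), a log2 change of -0.11 (adjusted p = 0.0264 in limma). The call of MARS1 was lost without DMSO replicate 2 or 3 and without palbociclib replicate 2 or 3, with adjusted p values in limma up to 0.0940, and that of KARS1 in the same 4 cases, up to 0.0753. Under quantile normalization KARS1 was not called either (adjusted p = 0.0774 in limma). Without limma's trend neither MARS1 (0.0690) nor KARS1 (0.0765) was.

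GARS1, which loads glycine in both compartments and lies outside the complex, fell with little spread. Its levels were 87.1, 84.7 and 88.9 FPKM with DMSO and 71.3, 71.3 and 71.4 with palbociclib. The palbociclib libraries lay within 0.178 FPKM of each other, and the log2 change was -0.28 (SE 0.03, adjusted p = 0.000137 in limma).

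Of the scaffold proteins, AIMP2 and EEF1E1 fell and AIMP1 did not pass the test. AIMP2, the core scaffold to which several enzymes dock, was at 50.3, 49.9 and 55.0 FPKM with DMSO and 41.4, 41.6 and 39.3 with palbociclib, a log2 change of -0.33 (SE 0.05, adjusted p = 0.000542 in limma). EEF1E1, which also associates with elongation factor 1, was at 59.5, 61.5 and 62.6 FPKM with DMSO and 49.4, 50.7 and 51.8 with palbociclib, a log2 change of -0.27 (SE 0.03, adjusted p = 0.000374 in limma). Both pairs of groups were apart. AIMP1 measured 43.8 ± 2.40 and 42.0 ± 1.59 FPKM (SD, n = 3), with a change of -0.06 and a 95% interval from -0.17 to 0.05. A readthrough transcript joins EEF1E1 to BLOC1S5 in RefSeq, and reads shared with it could have been split by the counting.

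Of the 16 mitochondrial enzymes, 2 fell (12.5%), 1 rose (6.25%) and 13 did not pass the test. Of all genes tested 22.9% fell and 20.9% rose. Without DMSO replicate 1, or without palbociclib replicate 3, none of the 16 was called lower. Under quantile normalization none was called lower either, and EARS2, FARS2, HARS2 and YARS2 were called higher, with adjusted p values in limma from 0.00509 to 0.0428. EARS2 and FARS2 were also called higher without palbociclib replicate 3 (adjusted p = 0.0299 and 0.0304 in limma). Whether the share called differs from that of the cytosolic enzymes was not tested. Their median change was -0.042, but it was 0.046 under quantile normalization and 0.0057 without palbociclib replicate 3, so no direction can be given for the class. They were also lower in level, with a median of 12.8 FPKM with DMSO against 52.8 for the cytosolic enzymes. Among all 38 genes the range ran from PARS2 at 2.97 ± 0.187 FPKM (SD, n = 3) to IARS2 at 127 ± 5.07.

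AARS2 and IARS2 were the mitochondrial enzymes that fell. AARS2, the mitochondrial alanine enzyme, was at 3.83, 3.65 and 3.61 FPKM with DMSO and 3.03, 3.15 and 2.62 with palbociclib, a log2 change of -0.26 (SE 0.07, adjusted p = 0.0206 in limma). IARS2, the most abundant member, was at 128, 121 and 131 FPKM with DMSO and 121, 114 and 114 with palbociclib, and its groups overlapped. Its log2 change was -0.12 (SE 0.04, adjusted p = 0.0406 in limma). The call of AARS2 was lost without DMSO replicate 1, DMSO replicate 2 or palbociclib replicate 3, and that of IARS2 without DMSO replicate 1 or 3 or palbociclib replicate 2 or 3, with adjusted p values in limma of up to 0.0627 and 0.124. SARS2, the serine enzyme, had a change of -0.19 that did not pass (adjusted p = 0.0651 in limma).

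HARS2 was the mitochondrial enzyme that rose, and it faces HARS1, the cytosolic histidine enzyme, across a short shared promoter. HARS2 was at 39.1, 37.6 and 38.2 FPKM with DMSO and 41.7, 40.3 and 41.4 with palbociclib, groups that do not overlap. Its log2 change was 0.10 (SE 0.03, adjusted p = 0.0402 in limma), and the call was lost when any of the 6 libraries was left out, with adjusted p values from 0.0537 to 0.123 in limma. HARS1 was at 48.8, 48.8 and 51.5 FPKM with DMSO and 49.2, 49.2 and 49.0 with palbociclib, a change of -0.02. The 84 bases between the starts are shown because both genes begin from them, HARS1 leftward on the minus strand and HARS2 rightward on the plus strand. They are given on the plus strand of GRCh38.p14 from the RefSeq table.
HARS1 to HARS2, chr5:140691371-140691454, plus strand: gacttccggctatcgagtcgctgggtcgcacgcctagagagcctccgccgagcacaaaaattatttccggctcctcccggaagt

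The comparison of the cytosolic with the mitochondrial enzyme for one amino acid was made within each library, where the scaling between libraries nearly cancels. It covered 17 pairs, with EPRS1 set against both EARS2 and PARS2 and FARS2 set against both cytosolic phenylalanine subunits, so some pairs share a gene. With DMSO the cytosolic gene had the higher mean in 15 pairs, by up to 26.8 times for EPRS1 over PARS2. The mean ratio favoured the mitochondrial gene in the other 2, cysteine and isoleucine. For cysteine that direction lies within the spread, since the log2 ratio of CARS1 to CARS2 was -0.12, -0.19 and 0.15 in the DMSO libraries.

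With palbociclib the ratio was lower in 11 pairs and higher in 3, each with groups that did not overlap, and the groups overlapped in 3. With 0.1 in place of 1 added to each FPKM, 9 pairs were lower with groups apart and 3 higher. The groups of AARS1 to AARS2 and of MARS1 to MARS2 then overlapped. Their mitochondrial genes were low, AARS2 at 3.69 and MARS2 at 4.16 FPKM with DMSO. Groups that do not overlap were seen for 54.7% of single genes. The smallest p of the exact permutation test with 3 against 3 libraries is 0.1, or 0.12 after adjustment over the pairs, so no pair could pass 0.05.

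FARSB to FARS2 and YARS1 to YARS2 crossed equality, with the cytosolic gene higher with DMSO and the mitochondrial gene higher with palbociclib. The ratio of FARSB to FARS2, the mitochondrial phenylalanine enzyme, went from a log2 mean of 0.24 ± 0.02 (SD, n = 3) to -0.28 ± 0.15. That of YARS1 to YARS2 went from 0.22 ± 0.06 to -0.15 ± 0.11. The ratio was higher with palbociclib for arginine by 0.26, for serine by 0.21 and for valine by 0.10. For serine and valine neither gene alone passed the test. Cysteine, asparagine and tryptophan gave overlapping groups.

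**Figure D3:**
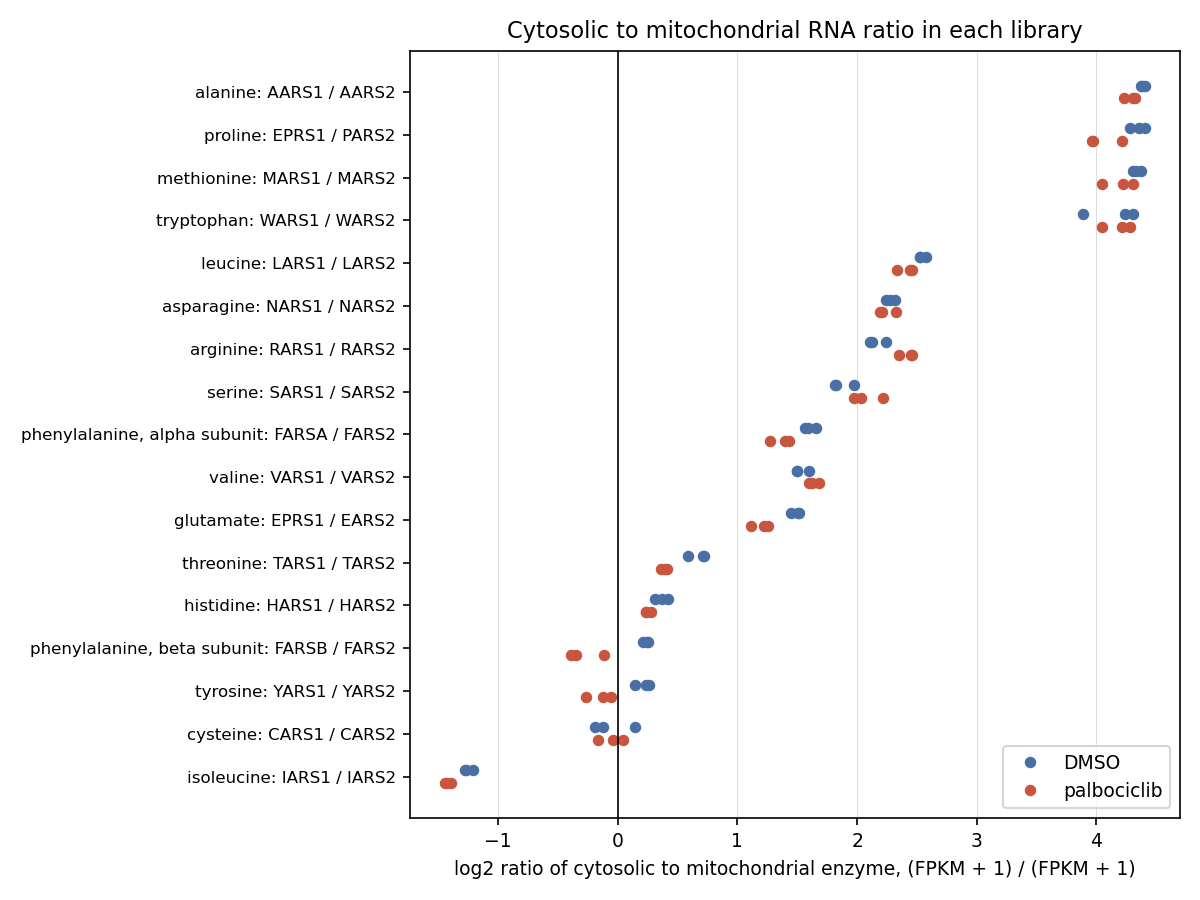
Log2 ratio of the cytosolic to the mitochondrial enzyme (x axis, FPKM + 1 in both) for 17 pairs (y axis), with 1 point per library, DMSO above and palbociclib below in each pair. The points of FARSB to FARS2 move from between 0.21 and 0.25 with DMSO to between -0.39 and -0.11 with palbociclib, across the line of equal levels.

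Several synthetase genes share a start region with a gene on the other strand, and 12 members had such a neighbour, itself no member, within 1 kb. Of the 11 neighbours tested, 3 fell, 1 rose and 7 did not pass, where 22.9% of all genes tested fell and 20.9% rose. With so few neighbours these counts do not set them apart from other genes. The strand used in counting is not given in the sources used here, and without it reads from a stretch that 2 genes share cannot be assigned to one of them. ORC3, a subunit of the origin recognition complex, starts 148 bases from RARS2 and fell from 20.5 ± 0.518 to 12.5 ± 0.398 FPKM (SD, n = 3), a log2 change of -0.68 (adjusted p = 5.72e-06 in limma). RARS2, the mitochondrial arginine enzyme, measured 15.3 ± 0.412 and 14.8 ± 0.156 FPKM over the same libraries, a change of -0.04 with a 95% interval from -0.14 to 0.05. S100PBP starts 84 bases from YARS1 and fell by 0.47 on the log2 scale, beside the fall of YARS1 by 0.26.

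LYRM4, which has a role in iron-sulphur cluster assembly, fell by 0.13 on the log2 scale beside FARS2, which had a change of 0.13 that did not pass. TBCK rose by 0.26 beside AIMP1. The motif of the E2F factors, which the retinoblastoma protein holds until CDK4 and CDK6 phosphorylate it, was searched as TTTGGCGC and as TTTCCCGC in the same windows and on both strands. The first form was in 1 of the members' 45 windows (2.2%, against 0.65% of all windows) and the second in 2 (4.4%, against 1.63%). The stretches of 30 bases with these matches in capitals are shown for each match.
EEF1E1, chr6:8102639-8102668, minus strand: gcctcctgtgcTTTGGCGCgcgctctccac
RARS2, chr6:87590112-87590141, minus strand: tgcactcgggaTTTCCCGCgcgccctcgcg
TARS1, chr5:33440561-33440590, plus strand: gcgccgaagccGCGGGAAAccctggactcc
The RARS2 match lies 143 bases before the start, next to the start of ORC3. EEF1E1 and TARS1 fell and RARS2 did not pass the test. Binding of E2F factors was not measured here. The E-box CACGTG was in 13.3% of the members' windows (5 members) against 7.26% of all. The motif of NRF1 was in 20% (7 members) against 5.78%. Windows of one gene can overlap, so a site in EARS2, SARS1 or TARS1 counted more than once. The median share of G and C bases was 62.0% in the members' windows and 58.7% in all windows. No match of one motif overlapped a match of another.

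Chromatin at the starts changed little. Of the 38 genes, 24 had an ATAC peak within 1 kb of the start, in 23 peaks, since HARS1 and HARS2 share 1. Mean counts per library ran from 364 at AARS2 to 3639 at LARS1. At an adjusted p under 0.05 in the edgeR quasi-likelihood test, 2 of the 23 peaks were lower and 0 higher. Without DMSO replicate 2, DMSO replicate 3 or palbociclib replicate 2 only the VARS2 peak was called. Of all 38121 peaks 11.9% were called, 6.46% lower and 5.41% higher, and of peaks within 1 kb of a start 11.4% were called lower and 1.78% higher. The members' peaks had a median log2 change of -0.03, against -0.05 for all peaks within 1 kb of a start.

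The called peaks lay at VARS2 and MARS1. The peak at chr6:30913788-30914714 (GRCh38) over the start of VARS2, the mitochondrial valine enzyme, measured 137, 127 and 132 CPM (counts scaled to the library's TMM-adjusted total) with DMSO. With palbociclib it measured 114, 112 and 117, and the groups did not overlap. Its log2 change was -0.21 (adjusted p = 0.00236 in edgeR). The RNA of VARS2, at 12.4 ± 0.652 and 11.4 ± 0.408 FPKM (SD, n = 3), did not pass the test. The peak at chr12:57487652-57488454 over the start of MARS1, which holds the ATF4-type motif shown above, measured 73.2, 81.3 and 89.5 CPM with DMSO and 73.9, 68.6 and 70.6 with palbociclib. Its groups overlapped, and its log2 change was -0.20 (adjusted p = 0.0224 in edgeR). DESeq2 did not call it (adjusted p = 0.0804), nor did edgeR without DMSO replicate 2 (adjusted p = 0.0650), DMSO replicate 3 (0.270) or palbociclib replicate 2 (0.0837).

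**Figure D4:**
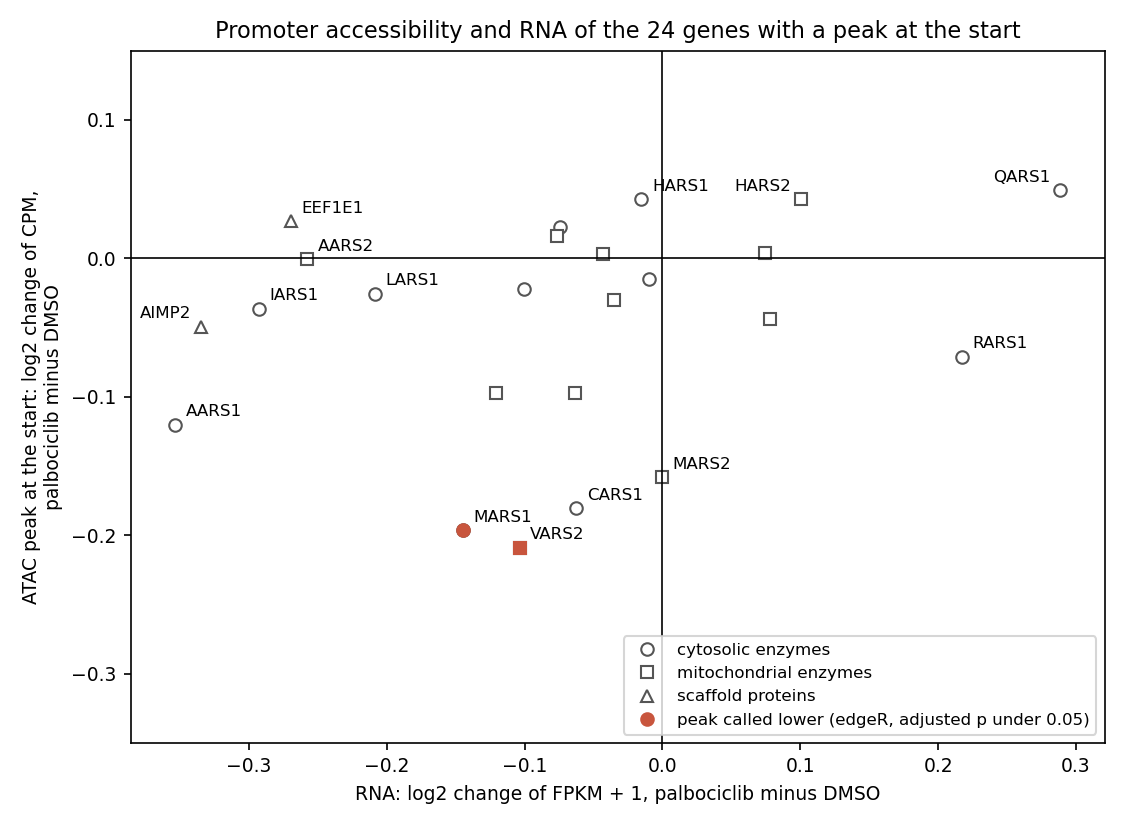
Log2 change of the ATAC peak at the start (y axis, CPM, palbociclib minus DMSO) against the RNA log2 change of FPKM + 1 (x axis) for the 24 genes with such a peak. The peaks of VARS2 at -0.21 and MARS1 at -0.20 are filled, while QARS1 and RARS1, the genes farthest to the right, have peak changes of 0.05 and -0.07 that were not called.

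Members with the larger RNA changes had peaks that did not pass the test. The AARS1 peak went from 138 ± 6.32 to 126 ± 5.15 CPM (SD, n = 3), with groups apart and an adjusted p of 0.102 in edgeR. The peaks of IARS1, AIMP2 and EEF1E1 had log2 changes of -0.04, -0.05 and 0.03, with overlapping groups. The peak shared by HARS1 and HARS2 was at 94.1 ± 2.90 and 96.9 ± 2.61 CPM. FARSB, TARS1 and GARS1 were among the 14 members with no peak of the set within 1 kb.

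Splicing of the members was described over 174 tested events in 29 genes, of 695 listed. Events were tested where a library held 20 reads or more on average and the rarer form made up 5% or more of them. No event passed an adjusted p under 0.05 in the edgeR quasi-likelihood test, where 0.35% of all tested events did. At an unadjusted p under 0.05 there were 14 (8.53% of all tested events were under it). The authors' deposited table gave an FDR under 0.05 to 3 of the 174, against 3.82% of all tested events.

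These were a cassette exon of GARS1 at chr7:30595824-30595933, a cassette exon of WARS1 at chr14:100373980-100374064 and a retained intron of RARS2. Inclusion of the GARS1 exon was 3.31%, 3.02% and 3.83% with DMSO and 8.26%, 5.23% and 5.56% with palbociclib, and the groups did not overlap. Inclusion of the WARS1 exon was 1.22%, 1.26% and 2.52% with DMSO and 4.496%, 5.17% and 3.64% with palbociclib, again with no overlap. Retention of the RARS2 intron, at chr6:87514309-87514427, was 91.2% ± 4.67 (SD, n = 3) with DMSO and 81.6% ± 5.59 with palbociclib, and its groups overlapped. In edgeR the adjusted p values were 0.246, 0.275 and 0.309. These 3 were chosen because the authors' table calls them.

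Genes of amino acid supply were among those that fell. Of 35 genes of the amino acid response, ATF4 and genes known as its targets, 20 fell (57.1%) and 6 rose (17.1%). The median change of the list was -0.21. Among all genes tested 22.9% fell and 20.9% rose, so the list stood above that share for falls only. ATF4 itself went from 136 ± 1.55 to 115 ± 2.74 FPKM (SD, n = 3), a log2 change of -0.24 (adjusted p = 0.000336 in limma). The largest falls were those of SLC1A4, a neutral amino acid transporter, by 1.29 on the log2 scale, of SLC7A1, a transporter of cationic amino acids, by 0.94, and of PHGDH, which opens serine synthesis, by 0.92. The largest rises were those of DDIT4, an inhibitor of mTORC1 signalling, by 1.05, of ALDH18A1, a proline synthesis enzyme, by 0.39, and of VEGFA by 0.31. ATF4 protein was not measured.

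The factors that use the loaded tRNA moved in both directions. Of 8 cytosolic elongation genes 4 rose (50%) and 3 fell (37.5%), against 20.9% and 22.9% of all genes tested. EEF2, the translocation factor, rose by 0.39, EEF1A1, which brings the loaded tRNA to the ribosome, by 0.30 and EEF1G by 0.17 on the log2 scale. EEF1B2 fell by 0.19, EEF1D by 0.16 and EIF5A by 0.11. Of 14 genes of mitochondrial translation 2 rose (14.3%) and 1 fell (7.14%), both below the shares of all genes tested. MTIF3, an initiation factor, rose by 0.32 and MRRF, the recycling factor, by 0.16. MTRFR, a release factor family member, fell from 9.86 ± 0.0909 to 6.196 ± 0.343 FPKM (SD, n = 3), or by 0.60 on the log2 scale. TUFM, which brings loaded tRNA to the mitochondrial ribosome, measured 123 ± 1.41 and 128 ± 7.82 FPKM and did not pass the test.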

How the data were processed

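Groups came from the labels, with 3 RNA and 3 ATAC libraries per treatment. Members and gene lists were chosen with earlier results of these data known. The authors deposited FPKM per gene and library, and a comparison table with a mean normalized count (a signal value), and, per the file headers, log2 fold changes with a Wald score and p-values. The submitters' processing notes name fastp 0.23.2, Salmon 1.10.2, STAR 2.7.10b and DESeq2 1.44.0 and the build GRCh38, with no role or order. The annotation and the counting strand are not given in the sources used here. The deposited splicing tables hold rMATS inclusion and skipping counts with inclusion levels, and name no version. The authors counted ATAC reads per peak as whole counts with featureCounts 2.0.6, per the file headers, over 1 peak set for all libraries. The command has no option to count read pairs, so mates were taken as counted singly.

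RNA was tested with limma 3.58.1 (trend) on log2(FPKM + 1) over the 15869 genes whose mean FPKM reached 0.5, which understates changes of low genes. Peaks and splicing events were tested with edgeR 4.0.16 (quasi-likelihood, TMM for peaks). A fall or rise means a Benjamini-Hochberg adjusted p under 0.05 over all genes or peaks; splicing events were adjusted within each event type. The ratio of paired enzymes used an exact permutation test, two-sided. The scripts were tested on simulated data. Every member may be named, and of the other lists at most the 3 largest rises and falls that passed; ATF4 and TUFM were named in addition, and so were starts of neighbours that passed. RefSeq starts and promoter sequences are of GRCh38.p14, with windows matched for 33 of 38 members. Of the genes that met the rule 2, and one neighbour of a member, are not reported here. Alternatives were pseudocount, filters, normalization, test, window, replicate block and leaving out each library.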

Additional observations from a re-analysis of the deposited data

How the results depend on the processing

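Of 490 alternative values for the RNA change of single members, 451 kept the call, 31 lost it, 8 gained it and 0 reversed it. A sign change of a member below the threshold both times was counted as kept and occurred 30 times, 13 of them under quantile normalization. Of the 17 members called, 11 were called under every setting: AARS1, FARSB, TARS1, IARS1, YARS1, EPRS1, LARS1, GARS1, AIMP2, EEF1E1 and RARS1. The other 6 were AARS2, HARS2, IARS2, KARS1, MARS1 and QARS1. Pseudocount 0.1, no filter on low values and the authors' deposited table each gave 3 higher and 14 lower members (17.9% and 20.3% of all genes in that table), and no trend gave 2 and 11.

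Quantile normalization gave 6 higher members, a cytosolic median of -0.026 and a mitochondrial median of 0.046, and it moved the median of all genes from 0.0023 to 0.057. Leaving out 1 library gave 1 to 4 higher and 10 to 14 lower members, a cytosolic median from -0.13 to -0.062 and a mitochondrial median from -0.057 to 0.0057, the last without palbociclib replicate 3. Only RARS1 was called higher without palbociclib replicate 1 or without palbociclib replicate 2. The pairs with groups apart were 12 with pseudocount 0.1 (9 lower and 3 higher) and 14 to 15 with 1 library left out. DESeq2 called 1 promoter peak, leaving out 1 library 1 to 2. No event was called in any edgeR alternative, and the authors' deposited FDR called 3.

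Same-numbered RNA libraries had correlations of 0.11, -0.01 and 0.09 in their deviations, and ATAC libraries 0.01, 0.04 and -0.03, so the numbers were not taken as pairs. With the replicate block, 3 members were higher and 14 lower, the medians were -0.10 and -0.04, 2 peaks and 0 events were called. MARS1 lost its call (adjusted p = 0.0546 in limma) and SARS2 gained one (0.0311). FPKM give no read total per RNA library. The lowest mean normalized count behind a member in the authors' deposited table was 438, for PARS2.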

Other observations

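Genes related to the synthetases in sequence or task were listed separately. Of 8 such genes, 6 passed the filter. Among these, 1 rose and 1 fell (16.7% each), below the 20.9% and 22.9% of all genes tested. DTD1, a deacylase that clears D-amino acids from tRNA, fell from 4.79 ± 0.203 to 3.84 ± 0.182 FPKM (SD, n = 3), a log2 change of -0.26 (adjusted p = 0.0101 in limma). Its relative DTD2 rose from 17.3 ± 0.299 to 19.3 ± 0.822 FPKM, a log2 change of 0.14 (adjusted p = 0.0293 in limma). The editing protein AARSD1 measured 37.0 ± 1.06 and 36.8 ± 0.686 FPKM, and the selenocysteine pathway genes SEPSECS and PSTK measured 4.60 ± 0.276 and 1.88 ± 0.613 FPKM with DMSO. None of these 3 passed the test, and neither did TARS3, at 2.05 ± 0.0541 and 2.43 ± 0.0735 FPKM.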
